A study of Mus musculus with 7 samples.

Results

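The cytosolic ribosomal protein genes encode the proteins of the small (Rps) and large (Rpl) subunits of the ribosome that translates nuclear mRNAs. They were taken from the RefSeq annotation of GRCm38 as the autosomal protein-coding genes whose symbol starts with Rpl or Rps and a number. Rpl10l, pseudogenes and ribosomal S6 kinases were left out. This gave 80 genes of 20661 autosomal protein-coding genes, 33 named Rps and 47 named Rpl. Of these, 69 are core ribosomal protein genes, and 11 carry names of paralogs, retrotransposed copies or a binding partner (Rpl3l, Rpl7l1, Rpl22l1, Rpl32l, Rpl36al, Rpl37rt, Rpl39l, Rps19bp1, Rps23rg1, Rps27l and Rps27rt). The symbol rule brought in Rps19bp1, which encodes a protein that binds Rps19 and is not a ribosomal protein itself.

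Fragments of DNA that carry 5-methylcytosine (5mC) were pulled down with an antibody and read by sequencing (MeDIP-seq). The DNA came from hippocampal neurons of C57BL/6J mouse embryos at E18.5. In 3 libraries the neurons had received 55 mM KCl, which depolarises neurons, for 4 h. The other 3 libraries came from untreated neurons. All cultures had been kept for 11 days in vitro, and the medium of both groups held AraC, a drug that stops dividing cells. No label states that the 3 libraries of a group are separate cultures or animals, so p-values speak only of differences among libraries, and these may be technical. The deposited values do not measure RNA, so the labelled cell type was not checked against marker expression.

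Ribosomal protein genes are among the most strongly transcribed housekeeping genes, and their promoters usually lie in CpG islands, stretches rich in CpG dinucleotides that stay free of methylation in most tissues. In mammals, 5mC sits mainly at CpG, and it commonly covers gene bodies and sequence between genes. Mammalian genomes also carry many processed pseudogenes of these genes, copied from their mRNAs, and a few copies or duplicates became genes with expression limited to tissues such as testis or muscle.

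Few ribosomal protein genes held an enriched region. An active region (an interval merged from the calls of the 6 libraries) lay in the gene or within 1 kb of it for 17 of the 80 genes (21.2%), and 63 had none. Among all autosomal protein-coding genes the share was 66.8%. A region called in all 6 libraries was found at 7 of the 80 genes (8.75%), against 36.2% of all genes. The gene windows held 25 regions in 0.471 Mb, or 53.1 per Mb, against 67.2 per Mb in the windows of other autosomal protein-coding genes. The core genes were lower still, with 11 of 69 (15.9%) holding a region and 35.9 regions per Mb. Of the 11 paralogs and copies, 6 held a region, at 136 regions per Mb. The division into core genes and others was partly made after the regions were seen, and neither share was tested. With Rpl32l, Rpl37rt and Rps23rg1 kept among the core genes, as first planned, 13 of 72 (18.1%) held a region.

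Small subunit genes held fewer regions than large subunit genes. Among core genes, 3 of 29 Rps genes (10.3%) and 8 of 40 Rpl genes (20%) had one. The core Rps windows held 19.1 regions per Mb and the core Rpl windows 47.1. These are counts of 3 and 11 regions, of which 4 of the 11 lay at Rpl22 alone, and the difference was not tested.

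The genes are short, with a median length of 3.21 kb against 17.6 kb for other autosomal protein-coding genes, so shares were also read within bands of gene length. Between 2 and 4 kb, where 37 ribosomal protein genes lay, 5 (13.5%) held a region, against 35.6% of 1476 other genes. Between 4 and 8 kb the shares were 6 of 23 (26.1%) and 50.1%, and between 8 and 20 kb they were 3 of 7 (42.9%) and 67.1%. Below 2 kb the order was the other way round, with 3 of 13 ribosomal protein genes (23.1%) and 15.1% of other genes. Of those 3 genes, Rpl32l and Rps27rt are retrogene copies, and core genes below 2 kb held a region in 1 of 9 cases (11.1%). Rpl32l was set apart from the core genes only after the regions were seen.

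**Figure D1:**
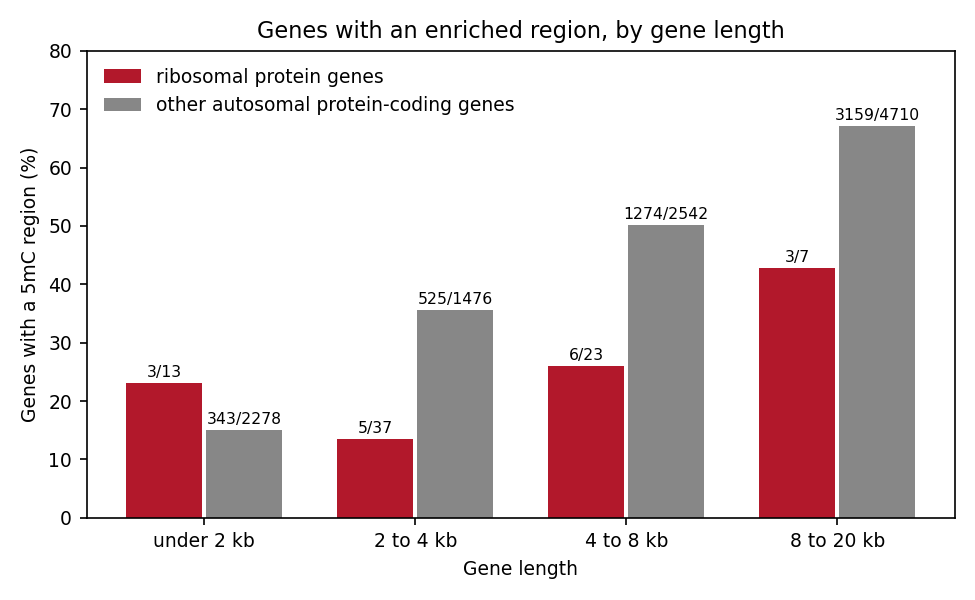
Share of genes with an active region in the gene or within 1 kb (y axis, percent), by gene length (x axis), for ribosomal protein genes (red) and other autosomal protein-coding genes (grey), with the counts above the bars. Ribosomal protein genes stood at 13.5% against 35.6% between 2 and 4 kb and at 26.1% against 50.1% between 4 and 8 kb, and above the other genes below 2 kb, where counts were 3 of 13.

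The genes were also read together with their surroundings, without bands of gene length. Over the gene and 50 kb on each side, ribosomal protein genes had a median of 7.84 regions per 100 kb, against 6.56 for other autosomal protein-coding genes. Over the gene and 10 kb on each side these medians were 4.47 and 5.99. Both stretches include the gene itself, which takes up a larger part of them where genes are longer, so they do not describe the flanks alone. A region overlapped the gene itself at 12 of 80 ribosomal protein genes (15%) and at 64.7% of other genes, and 20 ribosomal protein genes (25%) had none within 10 kb, against 17.8% of other genes. The 63 genes without a region in their window had the nearest one at a median of 6074 bp.

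Of those 63 genes, the nearest regions lay 1023 bp from Rpl5, 1341 bp from Rpl35, 1541 bp from Rps2 and 1551 bp from Rps21. The region beside Rpl5, which encodes a protein that binds 5S ribosomal RNA, was called in 5 libraries at a mean height of 19. Those beside Rpl35, Rps2 and Rps21 were called in 1 library each. The longest distance was 85559 bp at Rps6, the substrate from which the S6 kinases take their name, followed by 51501 bp at Rpl30 and 37526 bp at Rpl22l1. These are genes chosen by distance after the regions were known.

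The regions at ribosomal protein genes were 236 to 525 bp long, and the median over the 25 of their mean summit height was 15.2, against 13.5 for regions in the windows of other genes. For the 14 regions at core genes this median was 12, below that of other genes, and for the 11 at paralogs and copies it was 16. A summit height is the value the authors deposited for each called interval, a whole number, and it behaves like a pileup of fragments. Of the 25 regions, 8 had a call in every library (32%) and 8 in 1 library (32%), while the shares over all active regions were 20.5% and 29.3%. The 8 regions called in all 6 had mean heights of 15.2 to 26.2. The highest, beside Rps14, lay above 57.2% of all regions called in 6 libraries, and the lowest, in Rpl37rt, above 8.22%. By position, 12 regions lay inside a gene, 5 across a gene end and 8 beside a gene.

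**Figure D2:**
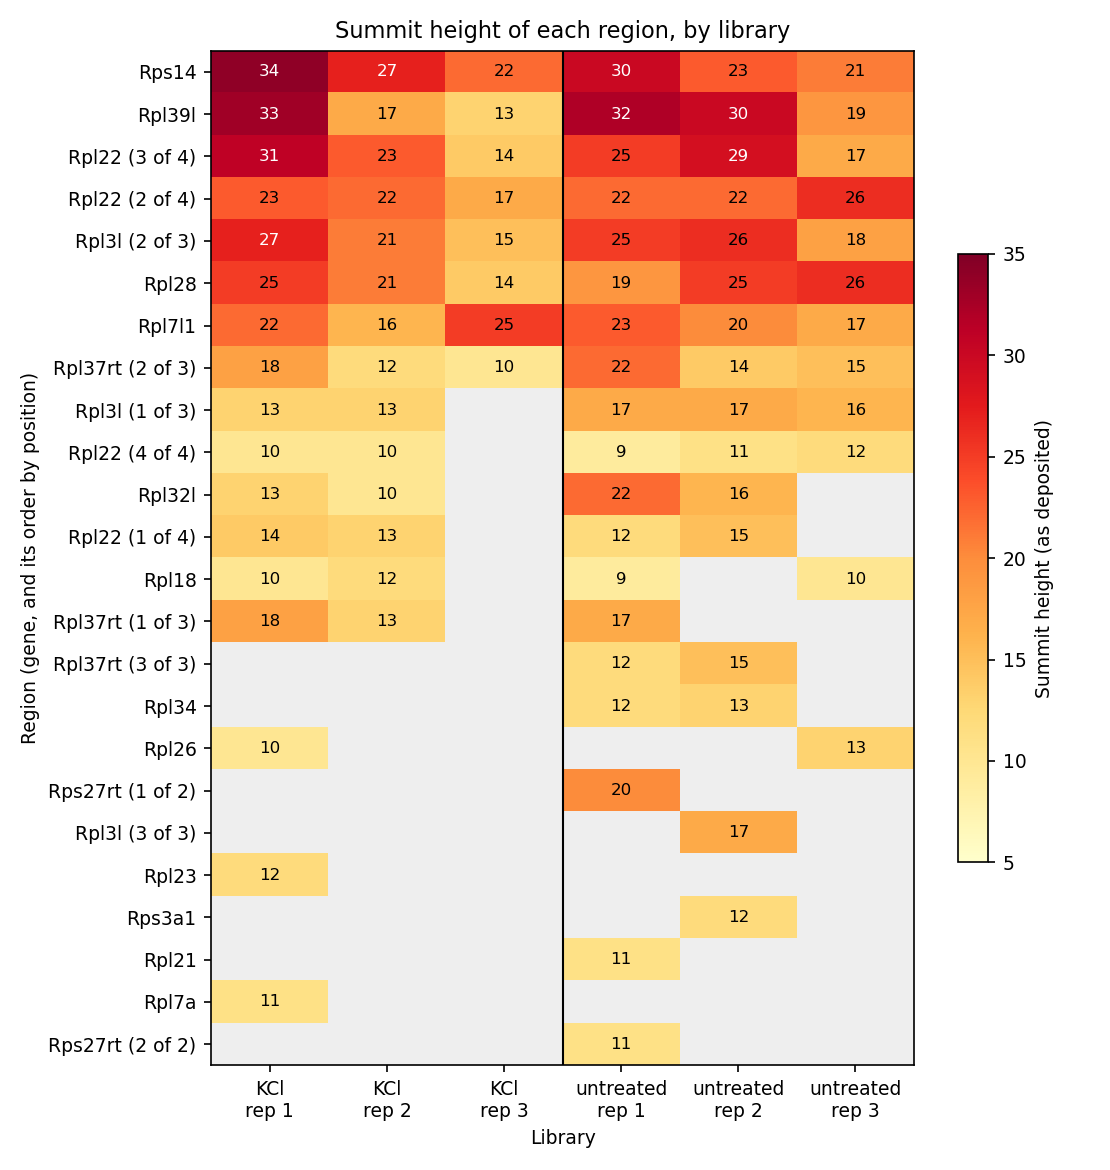
Summit height as deposited of 24 of the 25 regions (rows, named by gene and by order along the chromosome) in each library (columns, KCl libraries left of untreated libraries), with empty grey cells where no interval was called. Heights lay between 9 and 34, 8 rows are filled in all 6 libraries, and KCl replicate 3 is empty in the 16 others.

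Rps14 was 1 of 3 core small subunit genes with a region. It encodes a protein of the small subunit whose loss in humans is tied to the anaemia of the 5q- syndrome. Its region (chromosome 18, 60779111 to 60779605, mm10) lay beside the gene, past its upper end, next to the pseudogene Gm8731. Heights were 34, 27 and 22 with KCl and 30, 23 and 21 untreated. The ranges overlapped, and replicate 1 was the highest library in each group. Rps3a1, which encodes a further protein of the small subunit, had a region in its gene (chromosome 3, 86138075 to 86138453) at height 12 in untreated replicate 2, near the small nucleolar RNA gene Snord73a.

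Rpl22 stood apart from the other core genes with 4 regions. It encodes an RNA-binding protein of the large subunit that is needed for the development of αβ T cells in mice. At 9.65 kb it is also the longest of the core Rpl genes. The region with the highest mean height lay inside the gene (chromosome 4, 152332113 to 152332637), with heights of 31, 23 and 14 with KCl and 25, 29 and 17 untreated. A further region inside the gene (152329830 to 152330311) had heights of 23, 22 and 17 with KCl and 22, 22 and 26 untreated. In both the groups overlapped, and KCl replicate 3 was the lowest of the 6 libraries. The region across the start of the gene (152324153 to 152324569) was called in 4 libraries, at 14 and 13 in KCl replicates 1 and 2 and at 12 and 15 in untreated replicates 1 and 2. The region past the end (152334642 to 152334904) was called in 5, at 10 and 10 in KCl replicates 1 and 2 and at 9, 11 and 12 untreated.

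Rpl28 had the other large subunit region called in all 6 libraries among core genes, 986 bp upstream of the start by its centre (chromosome 7, 4791737 to 4792221). Heights were 25, 21 and 14 with KCl and 19, 25 and 26 untreated, again overlapping and again lowest in KCl replicate 3. Rpl18 had a region called in 4 libraries at heights of 10 and 12 in KCl replicates 1 and 2 and 9 and 10 in untreated replicates 1 and 3. It lay near the first base of the annotated gene, in a stretch shared with the sphingosine kinase gene Sphk2, and 2122 bp before the start listed in the promoter table. Rpl34 was called in untreated replicates 1 and 2 (12 and 13), and Rpl26 in KCl replicate 1 (10) and untreated replicate 3 (13). Rpl7a (11), in a region shared with the window of Surf1, and Rpl23 (12) were called in KCl replicate 1 alone, and Rpl21 (11) in untreated replicate 1 alone. Thus 3 of the 69 core genes, Rps14, Rpl22 and Rpl28, had a region in every library.

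**Figure D3:**
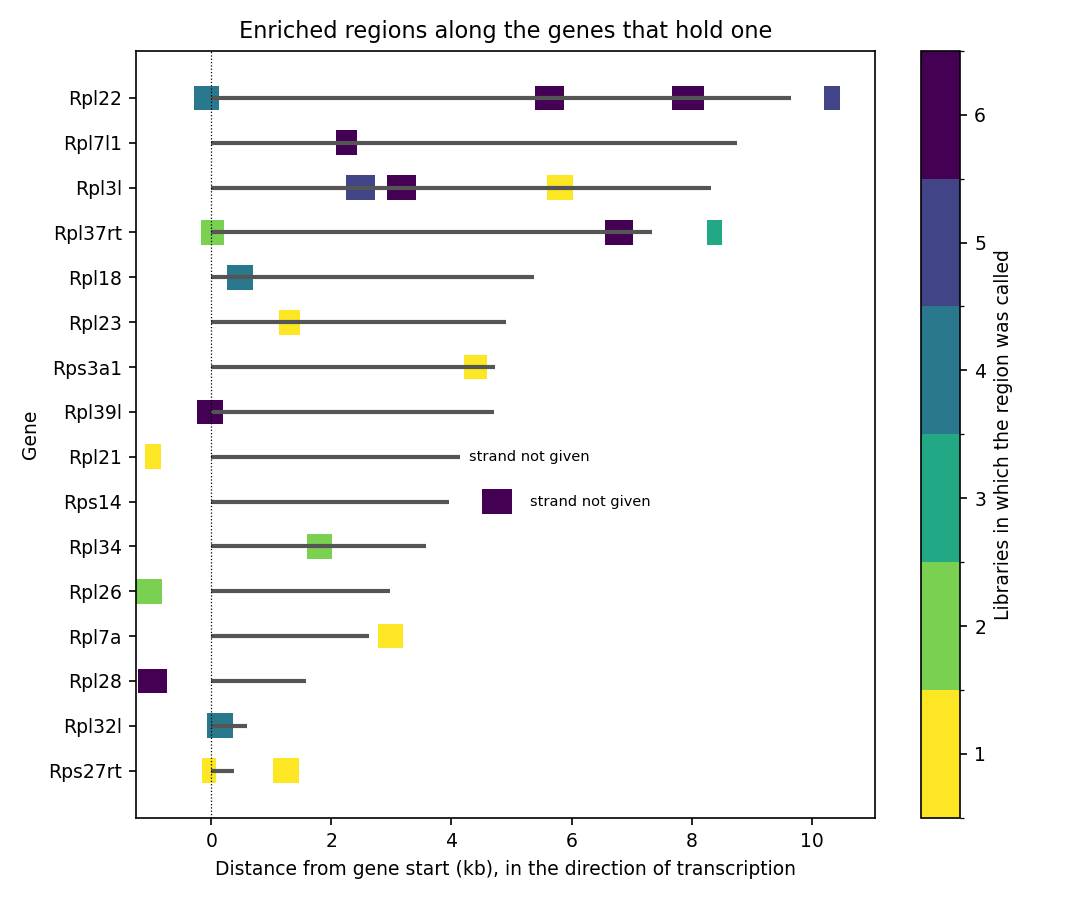
Of the 17 genes with a region, 16 are shown, longest at the top, drawn from the gene start (0) in the direction of transcription (x axis, kb), with regions as blocks coloured by the number of libraries that called them. Rpl21 and Rps14, whose strand the table used does not give, are drawn along the chromosome. Blocks across the start are seen at Rpl22, Rpl37rt, Rpl39l, Rpl32l and Rps27rt.

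The paralogs and copies held 11 of the 25 regions, in 6 genes, and 4 of these genes had a region in every library. Rpl39l is the autosomal paralog of the X-linked Rpl39 and is expressed mainly in male germ cells. Its region covered the gene start (chromosome 16, 10169953 to 10170396), with heights of 33, 17 and 13 with KCl and 32, 30 and 19 untreated. Rpl3l, the paralog of Rpl3 in skeletal muscle and heart, had 3 regions inside the gene. The highest (chromosome 17, 24730745 to 24731234) had heights of 27, 21 and 15 with KCl and 25, 26 and 18 untreated. The next (24730069 to 24730548) had 13 and 13 in KCl replicates 1 and 2, no call in KCl replicate 3, and 17, 17 and 16 untreated. The region at 24733424 to 24733849 was called in untreated replicate 2 alone, at 17. Rpl3 itself had none.

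Rpl7l1, a paralog of Rpl7, had 1 region inside the gene (chromosome 17, 46780236 to 46780576), with heights of 22, 16 and 25 with KCl and 23, 20 and 17 untreated. Here KCl replicate 3 was the highest library. Rpl37rt had 3 regions, of which that inside the gene (chromosome 5, 115103243 to 115103704) had heights of 18, 12 and 10 with KCl and 22, 14 and 15 untreated. Its region at the start (115110054 to 115110434), also in the window of Acads, was called in untreated replicates 1 and 2 at 12 and 15. The last (115101757 to 115102016) was called at 18 and 13 in KCl replicates 1 and 2 and at 17 in untreated replicate 1.

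Rpl32l and Rps27rt are short copies inside the windows of other genes, Map7 and Osbpl10. The Rpl32l region (chromosome 10, 20208372 to 20208806) had heights of 13 and 10 in KCl replicates 1 and 2 and 22 and 16 in untreated replicates 1 and 2. Both Rps27rt regions (chromosome 9, 114982655 to 114982890 and 114981282 to 114981718) were called in untreated replicate 1 alone, at 11 and 20. Set beside their core counterparts, Rpl3l, Rpl7l1, Rpl32l, Rpl37rt and Rps27rt held regions while Rpl3, Rpl7, Rpl32, Rpl37 and Rps27 held none. Rpl22 went the other way, with 4 regions against 0 at Rpl22l1. Rps27l, Rpl36al, Rps23rg1 and Rps19bp1 held none.

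Promoter windows were read from RefSeq sequences of GRCm38.p6, from 250 bases before to 50 after each listed start, for the 61 ribosomal protein genes matched. A region touched the window at 5 genes (8.20%), Rpl22, Rpl32l, Rpl37rt, Rpl39l and Rps27rt, and at 3.53% of all autosomal protein-coding genes with a window. Of the 50 core genes with a window, Rpl22 alone had such a region, against 4 of the 11 paralogs and copies. Rpl32l and Rpl37rt were set apart from the core genes after the regions were seen, so this contrast was partly fixed by that choice. The bases before the start are shown for Rpl39l and Rpl32l, whose regions over the window had the highest mean heights (24 and 15.2), for Rpl22 (13.5, a tie with Rpl37rt, which is not shown), and for Rpl10a and Rpl11, the first genes by name without a region. Letters run 5′ to 3′ on the gene's strand, and capitals mark CpG dinucleotides.
Rpl39l: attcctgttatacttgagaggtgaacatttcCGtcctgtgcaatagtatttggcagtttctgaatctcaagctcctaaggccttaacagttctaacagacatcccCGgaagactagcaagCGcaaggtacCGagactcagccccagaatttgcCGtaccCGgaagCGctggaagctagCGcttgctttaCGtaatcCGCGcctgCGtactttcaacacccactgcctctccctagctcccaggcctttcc
Rpl32l: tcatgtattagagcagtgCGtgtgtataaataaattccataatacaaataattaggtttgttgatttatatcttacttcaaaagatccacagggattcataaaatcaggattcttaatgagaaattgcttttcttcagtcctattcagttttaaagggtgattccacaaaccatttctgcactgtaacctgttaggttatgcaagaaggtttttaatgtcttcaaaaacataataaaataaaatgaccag
Rpl22: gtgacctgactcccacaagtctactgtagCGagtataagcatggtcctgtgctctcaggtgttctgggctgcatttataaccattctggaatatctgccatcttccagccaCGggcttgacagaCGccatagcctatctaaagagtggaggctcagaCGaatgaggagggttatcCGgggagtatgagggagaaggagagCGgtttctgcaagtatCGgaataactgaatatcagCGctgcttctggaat
Rpl10a: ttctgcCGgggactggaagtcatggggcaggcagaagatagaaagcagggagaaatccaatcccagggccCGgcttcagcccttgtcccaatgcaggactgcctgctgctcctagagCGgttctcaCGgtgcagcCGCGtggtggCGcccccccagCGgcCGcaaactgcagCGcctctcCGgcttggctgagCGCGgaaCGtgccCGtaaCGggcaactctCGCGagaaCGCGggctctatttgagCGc
Rpl11: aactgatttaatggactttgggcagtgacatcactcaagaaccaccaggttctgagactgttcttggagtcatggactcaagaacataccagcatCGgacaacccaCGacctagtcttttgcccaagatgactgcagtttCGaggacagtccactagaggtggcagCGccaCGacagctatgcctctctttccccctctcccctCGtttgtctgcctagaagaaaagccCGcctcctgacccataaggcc
These lie at chr16:10169978-10170227 (plus strand), chr10:20208189-20208438 (plus), chr4:152324186-152324435 (plus), chr17:28328315-28328564 (plus) and chr4:136053394-136053643 (minus). The regions covered all 250 bases shown for Rpl39l and Rpl22 and the last 67 for Rpl32l.

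The stretch shown held 12 CpG at Rpl39l, 1 at Rpl32l and 8 at Rpl22, against 21 at Rpl10a and 7 at Rpl11. Rpl22 has a further listed start 1290 bp downstream, whose window held 15 CpG and no region. Over the 300-base windows, ribosomal protein genes had a median of 21 CpG, against 14 in other autosomal protein-coding genes. It was 17.5 in the 14 genes with a region anywhere in the gene window and 22 in the 47 without. The 14 include paralogs and copies, and the median was 16 over the 11 paralogs and copies, against 22 in core genes. Core genes with a region had 11.5 (Rpl22), 18 (Rpl23), 21 (Rpl26), 26 (Rpl18), 27 (Rps3a1), 29 (Rpl28), 30.5 (Rpl34) and 33 (Rpl7a). Most of these lay above 22, so the lower median of the 14 was not seen among core genes alone. Only 3 ribosomal protein genes (4.92%), Rpl3l, Rpl32l and Rps23rg1, had fewer than 5 CpG in the 300-base window, against 27.4% of other genes. Among all autosomal protein-coding genes, windows with fewer than 5 CpG touched a region in 2.52% of cases, those with 5 to below 10 in 9.42%, those with 10 to below 20 in 5.07% and those with 20 or more in 1.20%. The 35 ribosomal protein genes with 20 or more CpG had 0 such regions. An antibody enriches fragments by their number of methylated CpG, so CpG density and methylation cannot be told apart in these heights.

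**Figure D4:**
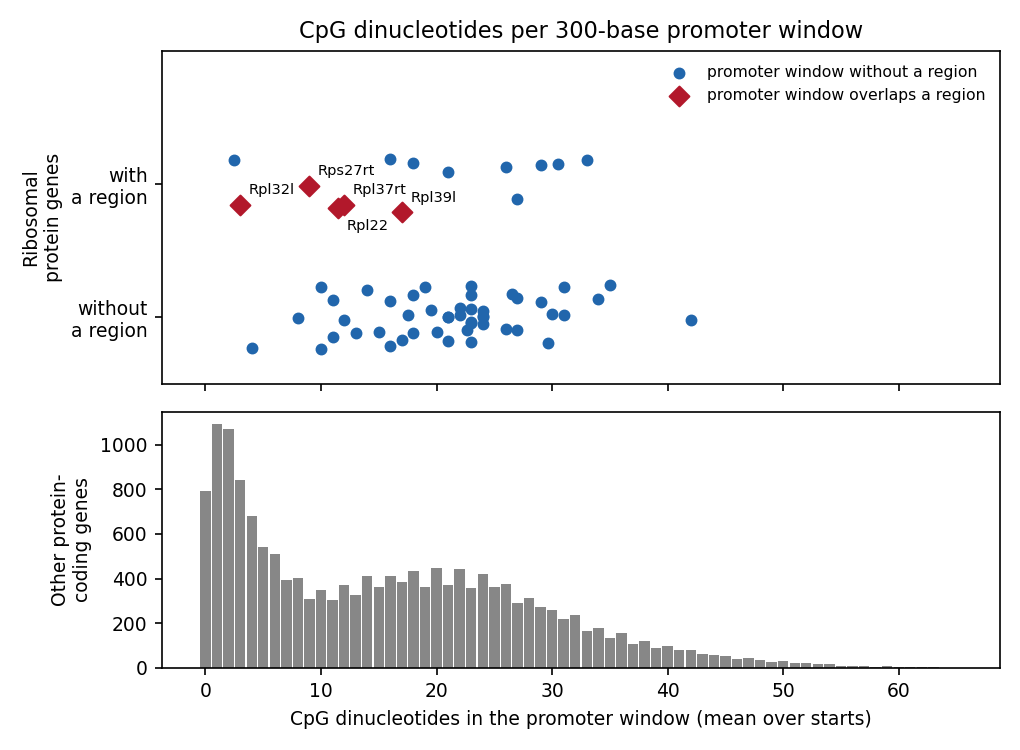
CpG dinucleotides per 300-base promoter window (x axis, mean over listed starts) of ribosomal protein genes with and without a region (upper panel, points, with vertical jitter) and of other autosomal protein-coding genes (lower panel, number of genes). Red diamonds mark the 5 windows that touch a region, which all have fewer than 20 CpG, and 35 ribosomal protein genes lie at 20 or more.

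The first transcribed bases were read as well. The mRNAs of these genes usually begin with a run of pyrimidines (the TOP motif), through which growth signals control their translation. The first 5 bases from the listed start were all C or T in 15 of 61 ribosomal protein genes (24.6%) and in 3.12% of other autosomal protein-coding genes. Listed starts can be off by some bases, and the run was not searched for elsewhere. It was present in 4 of the 14 genes with a region and in 11 of the 47 without.

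Depolarisation with KCl was compared with no treatment to ask whether neuronal activity changes DNA methylation. An interval was called at 13, 9 and 7 ribosomal protein genes in KCl replicates 1 to 3, and at 12, 10 and 9 in untreated replicates 1 to 3. The mean was 9.67 ± 3.06 genes with KCl and 10.3 ± 1.53 untreated (SD, n = 3 each), a difference of -0.667, which is smaller than the spread within the KCl group. As shares of the 80 genes these are 12.1% ± 3.82 and 12.9% ± 1.91. Over all autosomal protein-coding genes the shares were 50.8% ± 9.53 with KCl and 57.3% ± 2.75 untreated. The libraries differed in the number of intervals, from 34834 in KCl replicate 3 to 93470 in KCl replicate 1, and from 72947 to 87302 untreated. Without KCl replicate 3 the difference was 0.667 genes, and without untreated replicate 1 it was 0.167.

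**Figure D5:**
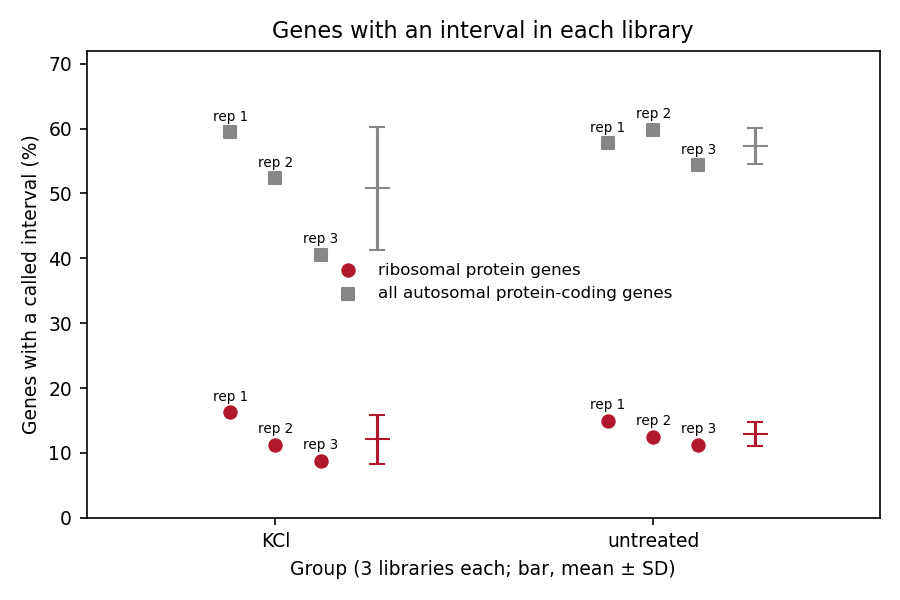
Share of genes with a called interval in each library (y axis, percent), KCl left of untreated, for ribosomal protein genes (red circles) and all autosomal protein-coding genes (grey squares), with mean ± SD beside the 3 libraries of a group. Ribosomal protein genes lay between 8.75% and 16.2% in every library, below the 40.6% to 59.8% of all genes, and KCl replicate 3 was the lowest for both.

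Of the 25 regions, 3 were called in KCl libraries alone (12%), 7 in untreated libraries alone (28%) and 15 in both. Over all active regions these shares were 11.9% and 24%. The regions called in KCl libraries alone, those at Rpl7a and Rpl23 among them, all came from replicate 1. Those called in untreated libraries alone were at Rpl3l, Rpl21, Rpl34, Rpl37rt, Rps3a1 and, with 2 regions, Rps27rt. No region was called in all libraries of one group and in none of the other, in either direction, where 1.01% of all active regions were called in all untreated and no KCl libraries and 0.0367% the other way.

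In the tested regions the heights of the groups overlapped. Of the 20537 regions called in all 6 libraries and above the height filter, 7 lay at ribosomal protein genes. With limma, 0 of these 7 were higher and 0 lower with KCl at an adjusted p below 0.05, where 0% of all tested regions were called in either direction. At an unadjusted p below 0.05 there were also 0 of the 7, while 0 regions were higher and 231 lower over the whole table. These counts depend on the shift between libraries. Of the 20537 regions, 405 were higher and 342 lower after median centring, and 551 and 494 with the replicate block and centring. Without KCl replicate 1, with heights as deposited, 0 and 4325 of 20796 tested regions were. In these settings 0, 1 (Rps14) and 1 (Rpl39l) of the 7 had such a p, and 0 passed the adjustment. Beside these counts over all regions, 1 of 7 does not set Rps14 or Rpl39l apart. No groups were without overlap among the 7, where 0.0292% of tested regions had all KCl heights above all untreated heights and 4.14% had all below. The median log2 change over all tested regions was -0.25, so changes are also given relative to it, as relative log2 changes.

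The largest relative change among the 7 was at Rps14, with a mean height of 27.7 ± 6.03 with KCl and 24.7 ± 4.73 untreated (SD, n = 3 each). Its log2 change was 0.15 (limma SE 0.36, adjusted p = 0.932), and its relative log2 change was 0.40, with overlapping groups. Within replicate numbers, KCl was higher in 3 of 3 pairs (34 against 30, 27 against 23 and 22 against 21). This region was picked as the largest of the 7, and the share of all tested regions with this pattern was not counted. The labels do not state that the numbers pair libraries. Limma with the replicate block and median centring, fitted across all tested regions, gave an adjusted p of 0.98 (0.0461 before adjustment). Rpl7l1 came next, at 21.0 ± 4.58 with KCl and 20 ± 3 untreated, with a log2 change of 0.05 (limma SE 0.36, adjusted p = 0.974) and a relative one of 0.30. Its relative change was -0.0603 without KCl replicate 3. On the lower side, Rpl39l had 21.0 ± 10.6 with KCl and 27 ± 7 untreated, with a log2 change of -0.42 (limma SE 0.36, adjusted p = 0.932) and a relative one of -0.17. It was the only one of the 7 with a relative change below 0, and Rpl28 had the next lowest, 0.01, with a mean of 20 ± 5.57 with KCl and 23.3 ± 3.79 untreated. The Rpl22 regions had 22.7 ± 8.50 against 23.7 ± 6.11 and 20.7 ± 3.21 against 23.3 ± 2.31, KCl against untreated, with relative log2 changes of 0.15 and 0.07. Rpl3l had 21.0 ± 6 with KCl and 23.0 ± 4.36 untreated, with 0.10. The median over the 7 was 0.10, and 6 of 7 lay above 0. Over all tested regions 50% lie above 0 by construction, since their median is subtracted. The regions are not replicates of a treatment, and this count was not tested. After median centring every one of the 7 had an adjusted p of 1. The Rpl37rt region called in all 6 libraries, with 13.3 ± 4.16 against 17.0 ± 4.36, fell below the filter.

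Genes that the symbol rule leaves out give a comparison for the copies. Rpl10l is a retrogene of the X-linked Rpl10 and takes its place in male germ cells when the X chromosome is silenced. Its region (chromosome 12, 66283800 to 66284605) was called in all 6 libraries, with heights of 39, 26 and 15 with KCl and 26, 40 and 20 untreated. Of the X-linked genes, Rpl39 had a region in 5 libraries (19 and 10 in KCl replicates 1 and 3, and 11, 13 and 16 untreated), and Rpl10 had 1 in KCl replicate 1 alone, at 11. Rps4x and Rpl36a had none. Of 267 autosomal pseudogenes named as copies of Rpl or Rps genes, 119 (44.6%) had a region in the same window, and 94 (35.2%) had one on the copy itself, which is 0.528 kb long at the median. Over all autosomal pseudogenes these shares were 26.6% and 20.8%. How reads that match both a gene and its copies were placed is not given in the sources used here, and the part of this in the counts was not tested.

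Other genes of the translation machinery were counted beside them, without a test. Mitochondrial ribosomal protein genes, which serve the separate ribosome of mitochondria, had one in 38 of 78 cases (48.7%), at 72.9 regions per Mb and a median gene length of 7.69 kb. Translation initiation and elongation factor genes had one in 43 of 69 (62.3%), ribosome assembly and nucleolar genes in 29 of 39 (74.4%), and ribosomal S6 kinase genes in 7 of 8 (87.5%), where 66.8% of all genes did. Median lengths were 15.3, 12.6 and 43.3 kb in the same order. The highest region of the 4 lists was at Taf1a, which encodes a subunit of the factor that starts ribosomal RNA transcription, with a mean height of 145 ± 31.1 with KCl and 153 ± 30.4 untreated (SD, n = 3 each). The elongation factor gene Eef2 had 67.0 ± 11.8 and 69.3 ± 15.8. The translation factor list was taken by symbol and so holds kinase genes, such as Eif2ak1 and Eif2ak4, that are not factors themselves. Eif2ak1 led it, with 75 ± 20.5 and 81.3 ± 7.77. The mitochondrial list was led by Mrpl47, with 48.7 ± 11.0 and 62.7 ± 11.0, KCl against untreated in each case. These 4 lists had 12, 37, 19 and 6 tested regions, of which limma called 0, with median relative log2 changes of 0.00, -0.03, 0.03 and -0.16.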

How the data were processed

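Per the labels' protocols, library construction and read analysis were done by a company. The submitters' processing notes list BWA, SICER and mm10 but no versions. With filters, settings and totals of reads not stated, sequencing depth is unknown, and counting error cannot be given as an interval. The values used are summit heights, a signal deposited by the authors as whole numbers, whose scaling between libraries is not stated, per the file headers. Intervals were called per library, and 99.98% of the 133337 active regions equal a merge of them. The 1 pooled input library was not used here.

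Each active region took the highest summit per library, and a region without an interval had no value there. Genes came from RefSeq GRCm38.p6, with 1 kb added on each side, 1 shared base counting as overlap, and 1-based coordinates. Heights of regions called in all 6 libraries, with a mean at or above the 25th percentile, were taken as log2(height + 1). They were compared with limma 3.58.1 (R 4.3.3) with an intensity trend and Benjamini-Hochberg adjustment over 20537 regions, two-sided, and the fit was tested on simulated data. Fold changes on this scale understate changes of low regions.

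The members and lists were chosen with earlier results of these data known, and Rpl32l, Rpl37rt and Rps23rg1 were set apart from the core genes after the regions were seen. Every gene with a region is named except 1, which is not reported here, and counts include it. Heights of all libraries are given for regions called in all 6. In the related lists the 4 genes with the highest regions could be named. Same-numbered libraries deviated together only weakly (correlations of 0.11, 0.11 and 0.15 across regions, just above the chosen limit of 0.1). Between KCl and untreated libraries of different numbers the correlations were all negative, from -0.09 to -0.02. The numbers may pair the libraries, but what they mark is not stated, and the main limma fit used no pairs. A replicate block was run as an alternative, beside other windows, filters, overlaps, centring and each library left out.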

Additional observations from a re-analysis of the deposited data

How the results depend on the processing

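Of the 80 ribosomal protein genes, 44 had a region with 5 kb on each side, 11 with regions called in at least 2 libraries, 7 with regions called in all 6, and 9 with each library cut to the size of the smallest. In the same settings 75.1%, 60.5%, 36.2% and 51.2% of all autosomal protein-coding genes had one. With core members only, an alternative chosen after seeing the data, 11 of 69 had one. The other 5 settings that keep all libraries gave 12 to 17. One of these left out the paralogs of the planned list and gave 13 of 72 genes, not of 80. Leaving out single libraries gave 14 to 17, with 65.1% to 66.7% of all genes. In each of these settings the share was below that of all genes. The difference in genes with an interval per library, -0.667, was -5.33 with 5 kb on each side, and ranged from -2.33 to 0.667 without single libraries. With the replicate block it is -0.667 by arithmetic, since the groups are of equal size, so this is not a check. The count of called regions at ribosomal protein genes was 0 in all 13 alternatives of the limma fit, the replicate block included, and from 0 to 0 without single libraries. Over all tested regions it was also 0 in each of these fits, so the 0 is not particular to ribosomal protein genes. The median of 21 CpG per promoter window was 21 for the start with the most CpG.

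Relative log2 changes turned in sign at Rpl28 without a filter (-0.00863) and without single libraries (range -0.123 to 0.179, with -0.0172 and -0.0274 among them), at Rpl22 (152329830) without untreated replicate 2 (-0.0475) or KCl replicate 3 (-0.0298; range without single libraries up to 0.237), and at Rpl7l1 without KCl replicate 3 (-0.0603; range up to 0.491). The cause was not tested. Those of Rps14, Rpl3l, Rpl39l and the other Rpl22 region kept their sign in all 13, but leaving out single libraries moved them over 0.279 to 0.546 for Rps14, 0.029 to 0.169 for Rpl3l, -0.325 to -0.0345 for Rpl39l and 0.028 to 0.228 for Rpl22 (152332113). With 3 libraries a group, unknown depth and heights of at most 34, small changes at these regions were not detectable here.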
